A study of Danio rerio with 6 samples.

Results

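Chemokine receptors other than those of the cxcr3 family, together with CXC chemokine ligands, were examined in macrophages sorted from zebrafish (Danio rerio) larvae. The set was a list of 37 zebrafish symbols, mapped to the Ensembl IDs of the count files by exact symbol or, failing that, by the upper-case name without paralog suffix. Of the 37 symbols, 18 matched exactly, 15 matched by upper-case name and 4 (cxcr2, cxcl11.2, cxcl13 and cx3cr1) matched no ID. The 33 matched symbols led to 36 of the 31962 gene IDs, since several IDs can carry one upper-case name. IDs are therefore given wherever a name is shared, and the a and b copies of such pairs are not told apart here. The gene carrying the name CXCR1 in capitals (ENSDARG00000054975) is not the exact match of cxcr1 and was not a member. It had 1 count in all 6 libraries together.

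The 6 libraries came from a line in which the promoter of mpeg1, a macrophage gene, drives a membrane-targeted mCherry reporter, and this reporter was carried by both genotypes. One group was homozygous for a mutant cxcr3.2 allele (cxcr3.2-/-, 3 libraries) and the other was wild type (cxcr3.2+/+, 3 libraries). Each library was made from a separate pool of 150 to 200 dissociated larvae, from which red cells were sorted. Ages of 5 and of 6 days after fertilisation both appear in the labels, and no treatment is named. The nature of the mutant allele is not given in the sources used here.

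Chemokines are small secreted proteins that guide leukocyte migration through receptors coupled to inhibitory G proteins. CXC ligands such as Cxcl12 and Cxcl11 act through CXC receptors such as Cxcr4 and Cxcr3, whereas atypical receptors (Ackr) bind chemokines without G protein signalling and remove them. In zebrafish, Cxcl11.1 (also called Cxcl11aa) is known as a ligand of the receptor encoded by cxcr3.2. The comparison of genotypes therefore asks whether transcripts of the remaining chemokine system differ when that receptor gene is mutated.

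Total counts were 6239470 to 9607009 per library. The cxcr3.2 transcript itself ranged over 155 to 190 CPM in wild type libraries and 154 to 204 CPM in mutants, so the groups overlapped, and a gene-level count does not show the mutation. All 19 IDs of a macrophage marker list had counts in every library, with summed levels of 5445 to 6625 CPM among wild type and 9378 to 9850 CPM among mutant libraries. In these macrophage sums, apoeb alone held 2075 to 2858 CPM in wild type and 4692 to 5551 CPM in mutant libraries. Epidermal markers (16 of 16 IDs detected) summed to 8863 to 9751 CPM and 8375 to 8551 CPM. Of these sums, pfn1 alone held 3384 to 3572 CPM in wild type and 3758 to 3831 CPM in mutant libraries, against the direction of most of the list. Fold changes of the 16 epidermal IDs were negative for 12 and positive for 4. All mutant libraries lay below all wild type libraries for 3 of them and above for 1, pfn1, beside 10.4% and 10.2% of all tested genes. The keratin gene krt4 measured 1339 to 1669 CPM and 1189 to 1310 CPM, so the pools held RNA of other cells too. Heat shock genes of a fixed list took 9.70% to 18.8% of counts in wild type libraries and 3.27% to 3.57% in mutant libraries. Levels are given as CPM scaled by the trimmed mean of M values (TMM), means as mean ± SD over 3 libraries, and fold changes as mutant over wild type on the log2 scale with a standard error (SE). CPM is not corrected for transcript length, so levels are compared between libraries and not between genes. In sorted pools, fewer cells that express a gene and less RNA per cell cannot be told apart.

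No receptor or ligand of the set passed the test between genotypes. Of the 36 IDs, 26 had enough counts to be tested, and none had an adjusted p under 0.05 in either direction (edgeR quasi-likelihood test, Benjamini-Hochberg adjustment over 16499 genes), where 1.19% of all tested genes were called. At an unadjusted p under 0.05 there were 4 of 26 members (15.4%) against 14.2% of all tested genes. Mutant and wild type libraries were fully apart for 6 of the 26 (23.1%), against 20.6% of all tested genes, 3 with mutant libraries higher (10.2% of all genes) and 3 lower (10.4%). Both shares were near those of all genes. Among the 3 higher, cxcl19 passed the count filter only through its mutant libraries. Fold changes were negative for 18 and positive for 8 members, with a median of −0.20, beside a median of −0.03 and 52.1% negative over all tested genes. Wild type replicate 3 was the highest library for 10 of the 26 and the lowest for none, and without it the median of the members was −0.078. DESeq2, run as a second test, called 3 of the 28 members to which it gave an adjusted p (10.7%, against 4.74% of all genes). It called 1 higher, CMKLR1 (2.17% of all genes), and 2 lower, cxcl11.6 and cxcl12b (2.57% of all genes).

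**Figure D1:**
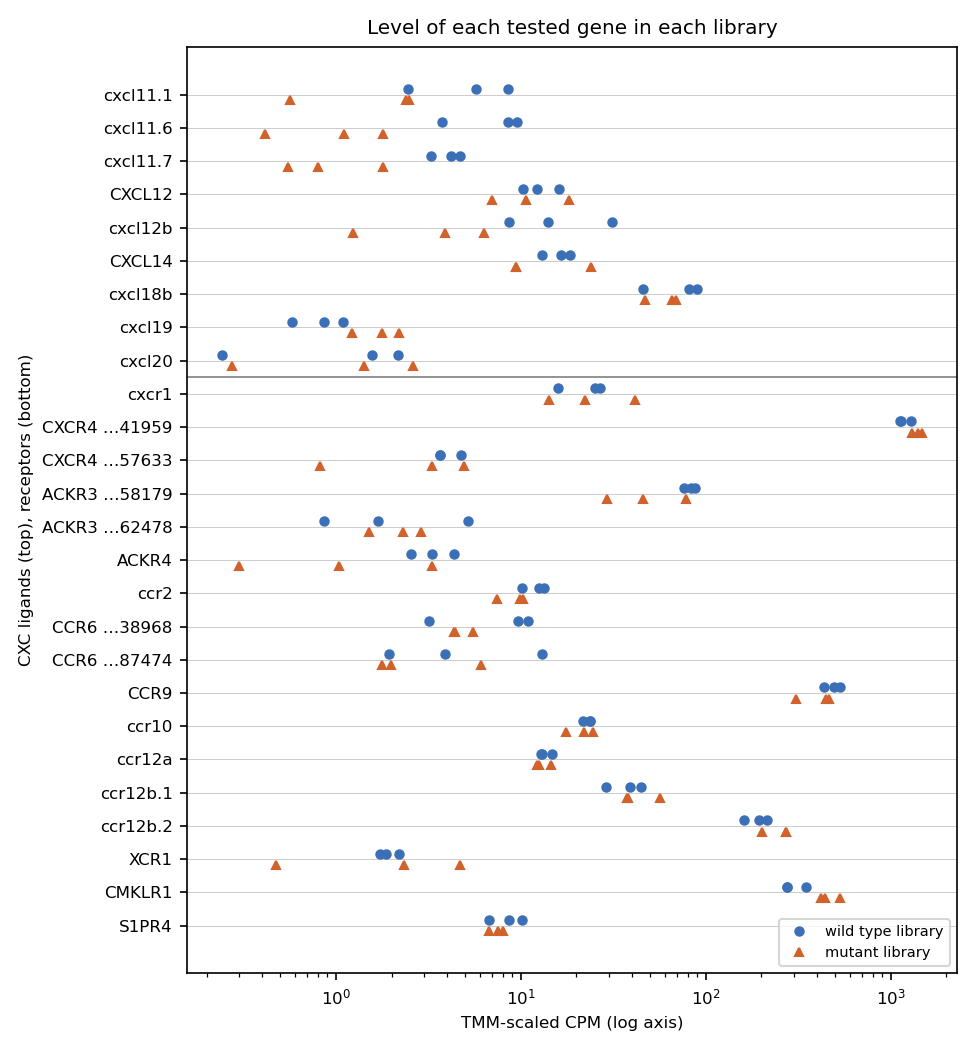
Level of each of the 26 tested genes in each library as TMM-scaled CPM on a log axis, with wild type libraries as circles and mutant libraries as triangles. The line separates the 9 CXC ligands from the 17 receptors, and IDs are shortened to their last digits where a name is shared. The groups are apart for CMKLR1, the abundant CXCR4 ID, cxcl19, cxcl11.6, cxcl11.7 and cxcl12b and overlap for the other 20 genes.

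The cxcl11 genes, which encode a family of CXC ligands duplicated in tandem in fish, had, together with cxcl12b, the most negative fold changes among the tested ligands. Of the 6 cxcl11 genes with an ID, 3 were tested, and each of the 3 had a negative fold change without passing the test. Summed over the 6 IDs, they came to 13.3, 15.3 and 23.6 CPM across wild type replicates 1 to 3 and to 4.31, 3.43 and 4.16 CPM across mutant replicates 1 to 3. The sums rest on 106 to 136 counts per wild type library and 25 to 44 per mutant library, and the mutant libraries lay below all wild type libraries.

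cxcl11.6 (ENSDARG00000094706) measured 3.76, 8.50 and 9.53 CPM across wild type replicates 1 to 3 and 1.102, 0.412 and 1.80 CPM in mutant replicates 1 to 3. The groups did not overlap, and mutant replicate 2, the lowest, held 3 counts. Means were 7.27 ± 3.08 CPM (wild type) and 1.103 ± 0.692 CPM (mutant), a log2 fold change of −2.67 (SE 0.68, 95% interval −4.21 to −1.14, edgeR adjusted p = 0.108). DESeq2 gave an adjusted p of 0.00878, the lowest among alternatives that tested cxcl11.6, of which the highest was 0.309.

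cxcl11.7 (ENSDARG00000093779) measured 3.27, 4.18 and 4.68 CPM in wild type and 0.802, 0.549 and 1.80 CPM in mutant replicates 1 to 3. These groups were apart as well, at 27 to 29 counts in wild type and 4 to 19 counts in mutant libraries. This gave a log2 fold change of −1.91 (SE 0.66, 95% interval −3.42 to −0.41, edgeR adjusted p = 0.232). On the RefSeq assembly GRCz12tu, cxcl11.6 and cxcl11.7 are direct neighbours with no other coding gene between them. How reads shared by such copies were counted is not given in the sources used here, so the split between the copies is uncertain.

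cxcl11.1 (ENSDARG00000100662), the ligand named above for Cxcr3.2, measured 5.70, 2.45 and 8.49 CPM in wild type and 2.40, 2.47 and 0.567 CPM in mutant replicates 1 to 3. Wild type replicate 2 lay between mutant replicates 1 and 2, so the groups overlapped. For cxcl11.1 the log2 fold change was −1.61 (SE 0.73, 95% interval −3.26 to 0.04, edgeR adjusted p = 0.361). Of the remaining copies, cxcl11.5 (ENSDARG00000092423) had 5, 1 and 5 counts in wild type replicates and 0 in each mutant replicate, too few to be tested. cxcl11.3 and cxcl11.8 had no count in any library, where 3 counts correspond to 0.284 to 0.52 CPM per library. The heat shock share of counts moved with the cxcl11 levels between genotypes, and its part in them was not tested.

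Cxcl12 (SDF-1) is the ligand of Cxcr4 and of the scavenger Ackr3, and guides migrating cells in the fish embryo. cxcl12b (ENSDARG00000055100) measured 31.3, 8.65 and 14.0 CPM across wild type replicates 1 to 3 and 3.91, 1.23 and 6.33 CPM in mutant replicates 1 to 3. All mutant libraries lay below all wild type libraries, but wild type replicate 1 stood well above the other two of its group. The mean was 17.99 ± 11.82 CPM against 3.83 ± 2.55 CPM, with a log2 fold change of −2.21 (SE 0.64, 95% interval −3.67 to −0.75, edgeR adjusted p = 0.157). Across alternatives the adjusted p of cxcl12b ran from 0.0163 (DESeq2) to 0.401. Without wild type replicate 1 the log2 fold change was −1.54.

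Its paralog cxcl12a (named CXCL12 in the table, ENSDARG00000037116) measured 12.2, 16.1 and 10.2 CPM in wild type and 10.7, 6.995 and 18.3 CPM in mutant replicates 1 to 3. Mutant libraries held both the lowest and the highest value, and the log2 fold change was −0.10 (SE 0.40, 95% interval −1.01 to 0.82, edgeR adjusted p = 0.953). The difference between the responses of cxcl12a and cxcl12b was not tested. Fibroblast and cartilage markers, cell types that can make Cxcl12, were detected for 13 of 13 IDs and summed to 759 to 1021 CPM among wild type and 658 to 881 CPM among mutant libraries. Endothelial markers (10 of 10 IDs with counts) summed to 70.0 to 108 CPM and 74.6 to 102 CPM. Among them 5 fold changes were positive and 4 negative, and only tek had all mutant libraries below all wild type libraries (14.6 ± 5.21 CPM against 7.01 ± 3.05 CPM). In the fibroblast and cartilage list 11 of 13 fold changes were negative, with a median of −0.41, and none passed the test. For 4 of its IDs all mutant libraries lay below all wild type libraries, as for cxcl12b and for 10.4% of all tested genes. These were PDGFRA (15.6 ± 1.29 CPM against 4.63 ± 3.29 CPM), COL2A1 ENSDARG00000069093 (86.5 ± 41.9 CPM against 36.8 ± 2.53 CPM), SOX9 ENSDARG00000043923 and COL5A1. The other IDs of the list overlapped, such as col1a1a (230 ± 9.79 CPM against 235 ± 39.9 CPM) and COL2A1 ENSDARG00000011407 (53.3 ± 26.1 CPM against 51.1 ± 12.7 CPM). Wild type replicate 1, the highest for cxcl12b, had the lowest fibroblast and cartilage sum of its group (759 CPM) and the highest endothelial sum (108 CPM). The part of fibroblasts, cartilage or endothelial cells in the cxcl12b values was not tested.

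**Figure D2:**
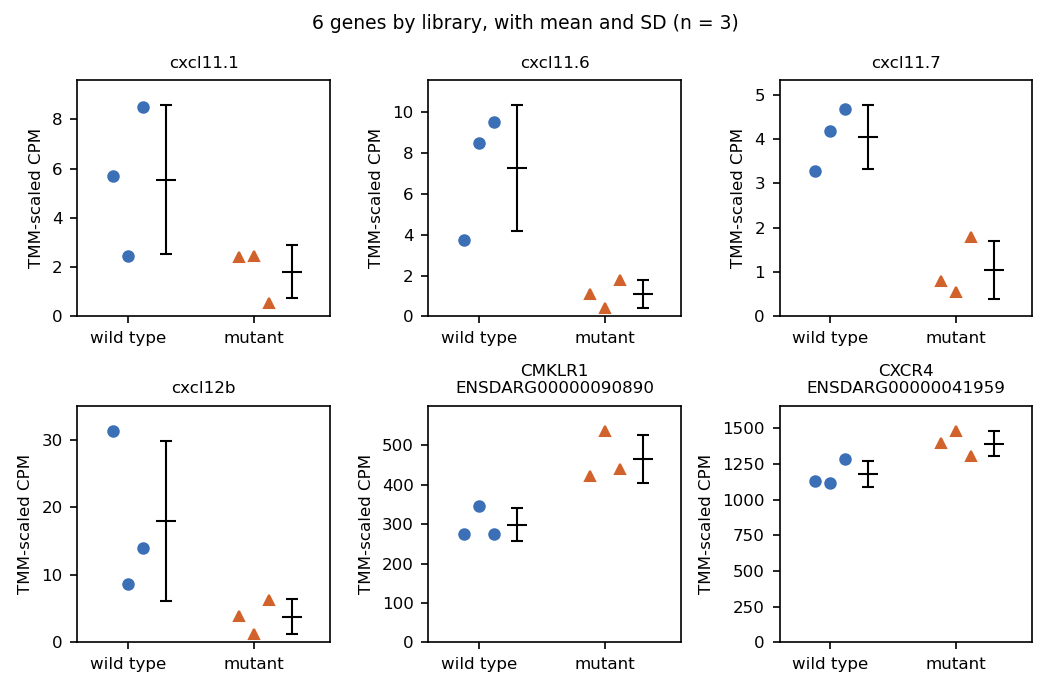
TMM-scaled CPM (linear axes from 0) of 6 genes in the 3 wild type and 3 mutant libraries, with points for libraries and bars for mean and SD. Mutant points lie below wild type points for cxcl11.6, cxcl11.7 and cxcl12b, overlap them for cxcl11.1 and lie above them for CMKLR1 and CXCR4 (ENSDARG00000041959).

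The other CXC ligands had fold changes with intervals that spanned 0. cxcl18b (ENSDARG00000075045), a neutrophil attractant in zebrafish, measured 81.6, 46.0 and 89.96 CPM in wild type and 65.4, 47.2 and 68.7 CPM in mutant replicates 1 to 3. Replicate 2 was lowest in both genotypes, and the log2 fold change was −0.26 (SE 0.27, 95% interval −0.88 to 0.36). cxcl14 (CXCL14, ENSDARG00000056627), which epithelia make in mammals, measured 16.5, 12.97 and 18.5 CPM in wild type and 9.42, 23.9 and 9.45 CPM in mutant libraries. Mutant replicate 2 alone exceeded the wild type libraries, and the log2 fold change was −0.17 (SE 0.41). That library also held 1299 CPM of summed muscle markers, against 77.2 to 121 CPM in the other 5. Some epidermal markers peaked there among mutant replicates 1 to 3, such as krt17 (21.35, 53.08 and 20.03 CPM) and cyt1l (52.01, 134.4 and 73.14 CPM). Others were lowest there, such as krt15 (85.09, 64.74 and 124.8 CPM) and TP63 (34.58, 13.58 and 28.73 CPM). The epidermal sums of these replicates were 8375, 8551 and 8472 CPM. The part of muscle or epidermal RNA in the cxcl14 values was not tested.

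cxcl19 (ENSDARG00000102776) measured 1.09, 0.577 and 0.867 CPM in wild type and 2.21, 1.78 and 1.23 CPM in mutant replicates 1 to 3. It was the only ligand among the 9 tested whose mutant libraries all lay above the wild type libraries. Its wild type counts (9, 4 and 5) were under the filter's minimum count of 10, and its mutant counts (22, 13 and 13) above it. Thus cxcl19 passed the filter through its mutant libraries alone, which favours such a separation, so the separation is no evidence of a difference. With 4 to 22 counts per library cxcl19 had a log2 fold change of 1.02 (SE 0.70, 95% interval −0.56 to 2.60, edgeR adjusted p = 0.582). cxcl20 (ENSDARG00000075163) ranged from 0.243 to 2.16 CPM among wild type and from 0.274 to 2.61 CPM in mutant libraries. Its fold change of 0.14 had a 95% interval of −2.13 to 2.41, from 2 to 26 counts per library.

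Chemotactic receptors with the most counts were CXCR4, CCR9 and CMKLR1, 1 ID of each, which together took 77.3% to 82.2% of the counts of all 36 IDs in each library. CMKLR1 (ENSDARG00000090890), the receptor for the attractant chemerin on mammalian macrophages, had the lowest p of the set. It measured 275, 347 and 275 CPM across wild type replicates 1 to 3 and 422, 535 and 440 CPM in mutant replicates 1 to 3. Every mutant library lay above every wild type library, and the means were 299 ± 41.4 CPM and 466 ± 60.8 CPM. The log2 fold change was 0.64 (SE 0.15, 95% interval 0.29 to 0.99), a 1.56-fold difference that did not pass edgeR's test (adjusted p = 0.0938). Over the alternatives the adjusted p ranged from 0.00326 (DESeq2) to 0.281, and a stricter count filter gave 0.0499. The macrophage marker sum was also higher in every mutant library, as given above. Within that sum, apoeb averaged 2415 CPM in wild type against 4996 CPM in mutant libraries. All mutant libraries lay above all wild type libraries for 7 IDs of the macrophage list and below them for 3, beside 10.2% and 10.4% of all tested genes. Of the 19 tested IDs in that list, 11 fold changes were positive and 8 negative. Of these IDs 3 rose (apoeb, SPI1 and ctsl.1) and 1 fell (ctss2.2), beside 0.309% and 0.885% of all tested genes. The list was chosen with earlier results of these data known, so its counts cannot be read as an excess over all genes. SPI1 averaged 361.5 ± 28.8 CPM in wild type and 560 ± 28.4 CPM among mutants, and ctsl.1 393 ± 65.2 CPM and 955 ± 98.6 CPM. In contrast, ctss2.2 averaged 133 ± 18.9 CPM and 15.9 ± 1.43 CPM. The other negative fold changes included that of MPEG1 ENSDARG00000043093, which averaged 118 ± 15.9 CPM in wild type and 49.3 ± 19.3 CPM among mutants. Another was that of the growth factor receptor gene csf1rb, with 123 ± 13.3 CPM and 74.0 ± 28.8 CPM. Neither passed the test (edgeR adjusted p = 0.0904 and 0.301), though the groups of both were apart. The other MPEG1 IDs overlapped between genotypes. MPEG1 ENSDARG00000055290 averaged 336 ± 56.1 CPM in wild type and 300 ± 42.2 CPM among mutants, and MPEG1 ENSDARG00000078569 averaged 3.16 ± 0.487 CPM and 2.28 ± 0.679 CPM. The part of macrophage content in the CMKLR1 values was not tested.

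CXCR4 encodes the Cxcl12 receptor, which leukocytes use for retention and trafficking. CXCR4 ENSDARG00000041959 measured 1133, 1118 and 1283 CPM in wild type and 1398, 1478 and 1305 CPM in mutant replicates 1 to 3. The groups did not overlap, though wild type replicate 3 and mutant replicate 3 lay close together. The log2 fold change was 0.24 (SE 0.11, 95% interval −0.01 to 0.49, edgeR adjusted p = 0.367). CXCR4 ENSDARG00000057633, the other copy, measured 3.64, 4.76 and 3.64 CPM in wild type and 3.31, 0.823 and 4.91 CPM in mutant libraries. Its groups overlapped, with a log2 fold change of −0.40 (SE 0.67).

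cxcr1 (ENSDARG00000052088), a receptor that neutrophils use for Cxcl8 in mammals, measured 26.9, 15.9 and 25.3 CPM in wild type and 41.2, 22.2 and 14.3 CPM in mutant replicates 1 to 3. Mutant libraries were both the highest and the lowest, and the log2 fold change was 0.19 (SE 0.40, 95% interval −0.71 to 1.096, edgeR adjusted p = 0.895). Neutrophil markers were detected for 11 of 11 IDs, with a sum of 1626 to 2137 CPM among wild type and 1991 to 3266 CPM among mutant libraries. Among them lyz, which encodes lysozyme, measured 71.7, 50.4 and 232 CPM in wild type and 81.8, 668 and 31.6 CPM in mutant replicates 1 to 3. Mutant replicate 2 alone stood above the wild type libraries, and the groups overlapped. Over the 11 neutrophil IDs, 10 fold changes were positive and 1 negative, with a median of 0.53, and none passed the test. All mutant libraries lay above all wild type libraries for 2 of the 11 and below them for 0, beside 10.2% and 10.4% of all tested genes. These 2 were nccrp1 (mean 148 CPM in wild type, 214 CPM in mutant libraries) and s100a10b (97.5 CPM and 182 CPM). MMP9 (766 CPM) and srgn (443 CPM) had the highest averages of the list over the 6 libraries. The groups overlapped for both of these, for npsn and for both LECT2 IDs. The listed symbol mpx matched no ID. Whether cxcr1 counts come from neutrophils in the sort was not tested. cxcr5 (CXCR5, ENSDARG00000010514), the receptor of mammalian B cells for CXCL13, had 0 to 7 counts per library and was not tested.

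Atypical receptors tended to low or variable counts. ACKR3 ENSDARG00000058179, a scavenger of Cxcl12 in zebrafish, measured 87.3, 76.1 and 83.0 CPM in wild type and 78.6, 45.8 and 29.3 CPM in mutant replicates 1 to 3. Wild type libraries lay close together, while mutant replicate 1 lay within their range and mutant replicates 2 and 3 below it. The log2 fold change was −0.68 (SE 0.32, 95% interval −1.41 to 0.04, edgeR adjusted p = 0.389), −1.13 without mutant replicate 1 and −0.39 without mutant replicate 3. ACKR3 ENSDARG00000062478 ranged from 0.865 to 5.20 CPM in wild type and from 1.51 to 2.88 CPM in mutant libraries, with a log2 fold change of −0.20 (SE 0.77).

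ACKR4 encodes a scavenger of CC chemokines in mammals. ACKR4 ENSDARG00000040133 measured 2.55, 3.32 and 4.33 CPM in wild type and 0.301, 3.29 and 1.04 CPM in mutant replicates 1 to 3. Mutant replicate 2 lay within the wild type range, and the log2 fold change was −1.15 (SE 0.84, edgeR adjusted p = 0.625). It was −2.30 without mutant replicate 2 and −0.65 without mutant replicate 1. ACKR4 ENSDARG00000078729 had 0, 9 and 21 counts in wild type and 0, 1 and 0 counts in mutant libraries, and did not pass the filter.

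CC receptors were measured with 12 IDs, of which 8 were tested. CCR9 ENSDARG00000055186, named for the receptor that guides thymus progenitors and gut lymphocytes, measured 491, 435 and 530 CPM in wild type and 464, 450 and 309 CPM in mutant replicates 1 to 3. Mutant replicate 3 was below the others, which overlapped. CCR9 ENSDARG00000055186 had a log2 fold change of −0.25 (SE 0.17, 95% interval −0.65 to 0.14, edgeR adjusted p = 0.601). CCR9 ENSDARG00000099738 had 0 to 13 counts per library.

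The ccr12 genes are CC receptor genes of fish. ccr12b.2 (ENSDARG00000026417) measured 162, 215 and 195 CPM in wild type and 272, 271 and 202 CPM in mutant replicates 1 to 3. Mutant replicate 3 lay within the wild type range and the other two mutant libraries above it, for a log2 fold change of 0.38 (SE 0.17, 95% interval −0.01 to 0.77, edgeR adjusted p = 0.371). Its direct neighbour on GRCz12tu, ccr12b.1 (ENSDARG00000059410), measured 44.6, 29.0 and 39.2 CPM in wild type and 56.7, 37.7 and 37.8 CPM in mutant libraries. For ccr12b.1 the groups overlapped (log2 fold change 0.23, SE 0.26). Summed, which does not depend on how counted reads are split between this pair, the pair reached 228 ± 19.7 CPM (wild type) and 292 ± 46.6 CPM (mutant). By library the sums were 206, 244 and 234 CPM in wild type and 329, 308 and 240 CPM in mutant replicates 1 to 3, so the groups overlapped. Whether reads shared by the pair were counted at all is not given in the sources used here. ccr12a (ENSDARG00000038541) measured 12.8, 12.97 and 14.7 CPM in wild type and 12.5, 14.5 and 12.3 CPM in mutant libraries. These values of ccr12a lay close together in all 6 libraries, and its log2 fold change of −0.04 had a 95% interval of −0.66 to 0.57.

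ccr2 (ENSDARG00000079829), named for the mammalian monocyte receptor of CCL2, measured 12.5, 10.1 and 13.3 CPM in wild type and 9.92, 7.41 and 10.3 CPM in mutant replicates 1 to 3. Wild type replicate 2 lay below mutant replicate 3, so the groups overlapped, and the log2 fold change was −0.38 (SE 0.31, 95% interval −1.09 to 0.34). ccr10 (ENSDARG00000040643), named for a receptor of skin-homing lymphocytes in mammals, measured 23.6, 21.6 and 23.6 CPM in wild type and 17.5, 22.0 and 24.5 CPM in mutant libraries. Its groups overlapped (log2 fold change −0.11, SE 0.24, 95% interval −0.64 to 0.43). Both CCR6 IDs, named for the receptor of mammalian CCL20, varied more within wild type than within mutant libraries. CCR6 ENSDARG00000038968 had 10.9, 3.17 and 9.71 CPM against 4.41, 5.49 and 4.35 CPM, a log2 fold change of −0.74 (SE 0.51). CCR6 ENSDARG00000087474 measured 1.94, 3.89 and 13 CPM against 6.11, 1.78 and 1.98 CPM (log2 fold change −0.91, SE 0.80). Its fold change was positive, 0.19, without wild type replicate 3.

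Of the CC receptors that were not tested, ccr8.1 had no count. ccr7 (CCR7, ENSDARG00000044561), which guides mature dendritic cells to lymph nodes in mammals, had 5 counts in wild type replicate 3, 14 in mutant replicate 2 and 0 in the other 4 libraries. ccr11.1 (ENSDARG00000070755) had 0 to 7 counts per library. These low counts do not show that the genes are silent in larval macrophages.

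The remaining receptors also overlapped between genotypes. S1PR4 (ENSDARG00000074851), a receptor for sphingosine 1-phosphate on mammalian blood cells, measured 8.61, 10.1 and 6.76 CPM in wild type and 8.02, 6.72 and 7.56 CPM in mutant replicates 1 to 3. Its fold change was −0.19 (SE 0.35, 95% interval −0.98 to 0.60). XCR1 ENSDARG00000052988, named for a receptor of cross-presenting dendritic cells in mammals, measured 2.18, 1.87 and 1.73 CPM in wild type and 4.71, 2.33 and 0.473 CPM in mutant libraries. Mutant libraries of XCR1 ENSDARG00000052988 spread to both sides of the wild type libraries (log2 fold change 0.37, SE 0.81). XCR1 ENSDARG00000054847 had 1 to 12 counts per library and was not tested.

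**Figure D3:**
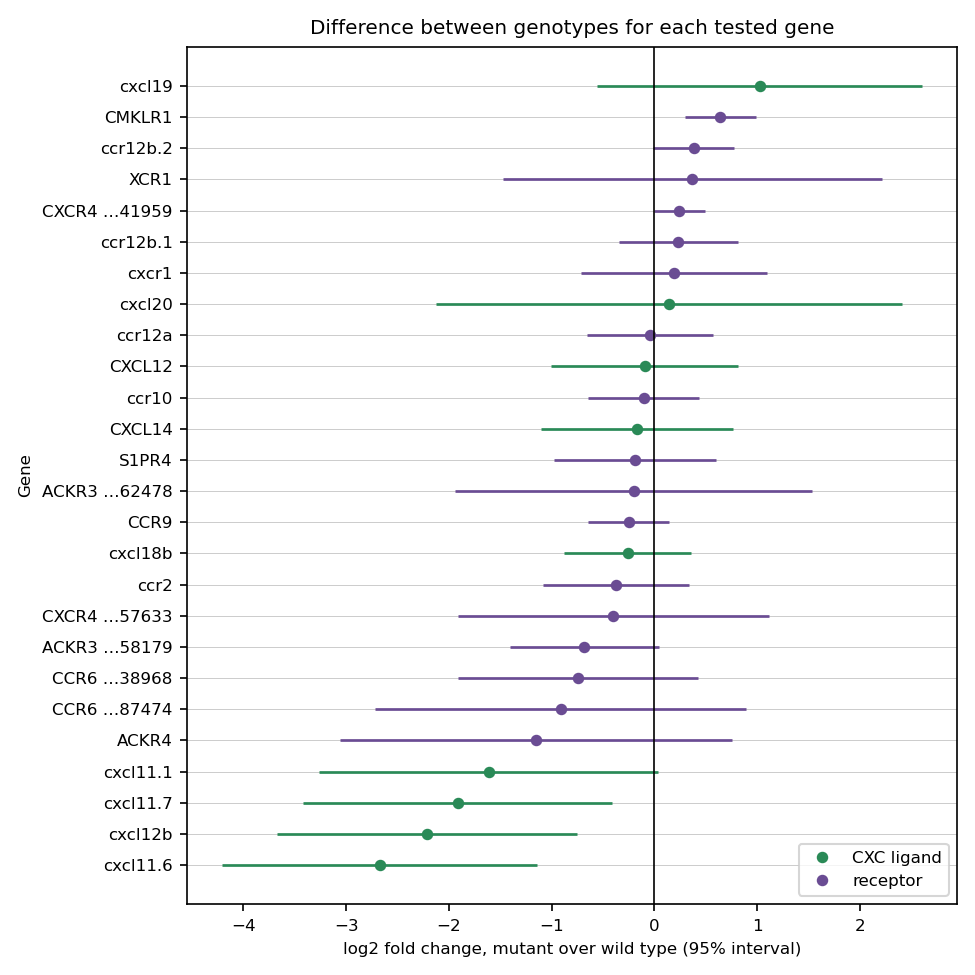
Log2 fold change of mutant over wild type with its 95% interval for each of the 26 tested genes, ligands in green and receptors in purple, ordered by value. The intervals of cxcl11.6, cxcl12b and cxcl11.7 lie below 0 and that of CMKLR1 above 0, and the others reach or cross 0. The intervals are not adjusted for the number of genes.

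By role, the 9 tested ligands had a median log2 fold change of −0.26, with 7 negative and 2 positive, and the 17 tested receptors one of −0.19, with 11 negative and 6 positive. Summed levels of all 24 receptor IDs were 2301 to 2533 CPM among wild type and 2408 to 2912 CPM among mutant libraries, and the genotypes overlapped. For the 12 ligand IDs the sums were 102 to 159 CPM and 84.8 to 110 CPM and overlapped too.

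Genes that act downstream of chemokine receptors were taken as a list of G protein subunits, receptor kinases, arrestins and their effectors. Of 47 tested IDs of this list, 1 rose in the mutant and none fell, beside 0.309% and 0.885% of all tested genes called in these directions. At an unadjusted p under 0.05 there were 4 (8.51%), below the 14.2% of all tested genes. The genotypes were fully apart for 7 of the 47 (14.9%), against 20.6% of all tested genes. Mutant libraries were higher for 6 of these (12.8%, against 10.2% of all tested genes) and lower for 1 (10.4% of all tested genes). Fold changes were positive for 35 of the 47 (74.5%), beside 47.9% of all tested genes, with a median of 0.16 beside −0.03. The gene that rose was GNAI2 ENSDARG00000018174, 1 of 2 IDs named for an inhibitory G protein alpha subunit that transmits chemokine receptor signals. It measured 243, 243 and 235 CPM in wild type and 406, 395 and 356 CPM in mutant replicates 1 to 3, with every mutant library above every wild type library. The log2 fold change was 0.68 (SE 0.12, 95% interval 0.41 to 0.96, edgeR adjusted p = 0.0369). This call was lost with any 1 of the 6 libraries left out (adjusted p = 0.0776 to 0.151) and with the replicate number as a block (adjusted p = 0.0934), at fold changes of 0.65 to 0.74. Over all alternatives its adjusted p ranged from 1.56e-05 to 0.151. GNAI2 ENSDARG00000017294, the other ID of that name, averaged 77.1 ± 28.1 CPM (wild type) and 82.4 ± 7.16 CPM (mutant) (log2 fold change 0.09, SE 0.25).

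The signalling genes with the next lowest p were GNA13 ENSDARG00000037924, a G protein alpha subunit, and gnb1b (ENSDARG00000104372), a beta subunit. GNA13 ENSDARG00000037924 measured 29.5, 37.3 and 23.9 CPM in wild type and 50.7, 57.1 and 61.7 CPM in mutant libraries (log2 fold change 0.90, SE 0.22, edgeR adjusted p = 0.104). gnb1b averaged 399 ± 57.1 CPM (wild type) and 524 ± 31.99 CPM (mutant; log2 fold change 0.39, SE 0.14, edgeR adjusted p = 0.256). Neither passed the test, though the groups of both were apart. In the negative direction the lowest p belonged to PTK2B ENSDARG00000039577, GNB2 and SRC, each with a mean under 7 CPM and an edgeR adjusted p of 0.518 to 0.56.

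CXC ligands outside the set were matched for 4 of 7 symbols, and 2 were tested. cxcl8a (ENSDARG00000104795), the zebrafish counterpart of the neutrophil attractant interleukin 8, measured 857, 645 and 844 CPM in wild type and 471, 393 and 335 CPM in mutant replicates 1 to 3. All mutant libraries were below all wild type libraries, and cxcl8a fell (log2 fold change −0.97, SE 0.17, edgeR adjusted p = 0.0332). Its call held without wild type replicate 2 (adjusted p = 0.0479) and was lost without any 1 of the other 5 libraries (adjusted p = 0.0502 to 0.146) and with the replicate number as a block (adjusted p = 0.0584). Over all alternatives the adjusted p of cxcl8a ranged from 5.79e-05 to 0.146. cxcl8b.1 (ENSDARG00000102299) measured 61.2, 53.0 and 59.4 CPM in wild type and 75.3, 70.8 and 78.2 CPM in mutant libraries. Those libraries were apart in the opposite direction from cxcl8a, with a log2 fold change of 0.37 (SE 0.16, edgeR adjusted p = 0.35). The difference between the 2 cxcl8 genes was not tested. The macrophage marker sum and the heat shock share both separated the genotypes, and their part in the GNAI2 and cxcl8a values was not tested. cxcl8b.3 and cxcl32b.1 had 11 and 3 counts in all libraries together.

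**Figure D4:**
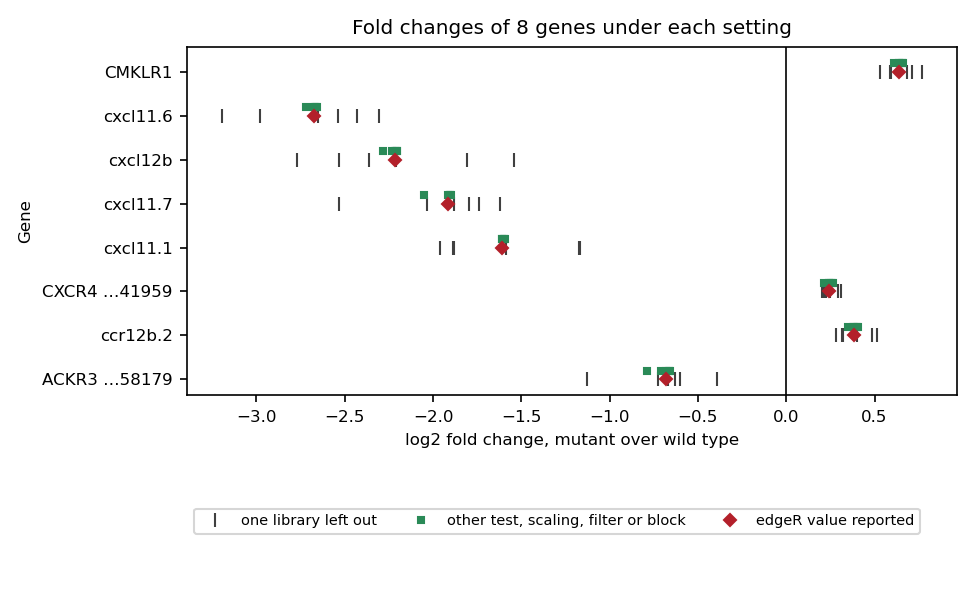
Log2 fold change of the 8 members with the lowest p under each setting, with the reported edgeR value as a diamond, each left-out library as a tick, and other tests, scalings, filters and the replicate block as squares. No setting moved any of these 8 across 0, and left-out libraries moved cxcl11.6, cxcl12b and cxcl11.7 the most in absolute terms (cxcl12b from −2.77 to −1.54).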

How the data were processed

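RNA was measured as polyadenylated transcripts in 6 libraries of sorted cells. Each deposited file gives one library's raw read counts for Ensembl genes, which the authors left unnormalized. Per the labels' protocols, cDNA was amplified with a low-input kit, sequenced as single reads and aligned to GRCz10. Bowtie and TopHat appear in the submitters' processing notes. Which tool counted reads, how it treated strand and multimapping reads, and which annotation it used is not given in the sources used here. Amplified reads carry no molecular identifiers, so amplification noise adds to the spread between libraries.

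Symbols came from a table that named 26121 of the 31962 IDs, and an upper-case name was used where it matched at most 3 IDs. Groups and replicate numbers came from the sample titles. Replicate pairs differed by more than sampling noise (chi-square per gene of 18.3 or more), so each library was kept as 1 sample. The labels name no batch or date.

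Genes were kept by edgeR's filterByExpr (minimum count 10, total 15), which left 16499, and scaled by TMM. edgeR 4.0.16 in R 4.3.3 fitted the quasi-likelihood test on genotype alone. Tests were two-sided, p was adjusted by Benjamini-Hochberg, and genes under 0.05 were called. The SE is edgeR's log2 fold change before shrinkage by its prior count, divided by the root of the F statistic. Intervals are centred on the reported fold change, which includes that shrinkage. The common biological coefficient of variation was 0.441, which with 3 libraries per genotype limits precision. Alternatives were DESeq2 1.42.0, its size factors in edgeR, no filter, at least 50 counts in 3 libraries, the replicate number as a block and each library left out. A fit without heat shock genes was added after the data were seen. The fit was tested on simulated data.

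Members and gene lists were chosen with earlier results of these data known. A count within a list beside the share of all tested genes is therefore a description and not a test. By rule, values in every library are given for tested members with a mean of at least 1 CPM. For the signalling list and the CXC ligands outside the set, the called genes and the 3 lowest p in each direction are named. This rule did not cover the cell type marker lists or the heat shock list. Chromosome positions are not given, since the table of positions is for another assembly.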

Additional observations from a re-analysis of the deposited data

How the results depend on the processing

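Over all genes, 51 were called higher and 146 lower. DESeq2 called 425 and 503, a filter of at least 50 counts in 3 libraries 142 and 295, and leaving out 1 library 3 to 11 and 43 to 98. Of the members, DESeq2 called 1 higher and 2 lower, and the stricter filter called 1 higher (CMKLR1) and 0 lower. The other alternatives, including the 6 with a library left out (0 to 0 higher, 0 to 0 lower), called 0 members. Of the signalling genes, 1 was called higher, 2 with DESeq2 and 0 to 0 with a library left out.

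With the replicate block, 13 genes were called higher and 84 lower, 0 members and 0 signalling genes, and the fold changes of ACKR3 ENSDARG00000062478 (0.11) and XCR1 ENSDARG00000052988 (−0.037) took the opposite sign. Same-numbered libraries did not deviate together (r of −0.026, 0.0024 and −0.029 for numbers 1 to 3). The labels do not say whether same-numbered samples were prepared together, and these correlations cannot settle it.

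Of 26 tested members, 16 kept the sign of their fold change under every alternative that could be run. With 1 library left out, the other 10 ranged from negative to positive: ACKR3 ENSDARG00000062478 −0.61 to 0.79, XCR1 ENSDARG00000052988 −0.48 to 0.87, cxcl20 −0.59 to 0.71, cxcr1 −0.31 to 0.49, CXCL12 −0.53 to 0.18, CCR6 ENSDARG00000087474 −1.71 to 0.19, ccr12a −0.12 to 0.026, ccr10 −0.21 to 0.023, CXCL14 −0.76 to 0.058 and CXCR4 ENSDARG00000057633 −0.93 to 0.040. The causes were not tested. The median over members stayed between −0.33 and −0.078. Leaving heat shock genes out of the whole fit, with 16240 genes tested, gave 54 higher and 131 lower. In the main fit, 17 of the 27 tested IDs of the heat shock list were called lower and 0 higher, beside 0.885% and 0.309% of all tested genes. That list too was chosen with earlier results known, so this count is no test of the list. The stricter filter left 15 members to test.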
